A study of Mus musculus with 15 samples.

Results

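Macrophage polarization markers are genes whose expression is used to place a macrophage between classical activation, the state set by interferon-γ and bacterial products, and alternative activation, the state set by interleukin-4 (IL-4) and IL-13. The 10 genes described here were taken by name from the 55385 genes of the count table: Nos2 and Acod1 as classical markers, Arg1, Mrc1, Retnla, Chil3 and Mgl2 as alternative markers, and Il4ra, Msr1 and Cd163 as receptors that are read beside them. They were followed across 15 RNA-seq libraries of bone marrow-derived macrophages (BMDMs) grown from mice of 6 weeks of age and treated for 2 h. The STAT5fl/fl mice carried floxed Stat5 alleles on the BALB/c background, and the STAT5cKO mice carried the same alleles with Csf1r-iCre, a Cre recombinase under the Csf1r promoter that acts in myeloid cells and in some lymphocytes. Each culture received serum-free DMEM, 20 ng/mL recombinant mouse GM-CSF (rmGM-CSF) or medium conditioned by serum-starved 4T1 cells (4T1 CM), a mouse line of triple-negative mammary carcinoma. The STAT5fl/fl arm held 2 biological replicates, numbered 112 and 113, and the STAT5cKO arm held 3, numbered 114, 115 and 116. Each number had 1 library for each of the 3 treatments, and the labels do not say whether a number marks 1 animal. The STAT5fl/fl arm began with a further replicate that the study removed in quality control.

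Classical and alternative activation meet at arginine. The inducible nitric oxide synthase encoded by Nos2 turns arginine into nitric oxide, whereas arginase 1, encoded by Arg1, turns it into ornithine and urea. Acod1 encodes the mitochondrial enzyme that makes itaconate from cis-aconitate. Mrc1 (CD206) and Mgl2 (CD301b) are lectins that take up glycosylated ligands, Retnla and Chil3 encode the secreted proteins Fizz1 and Ym1, Il4ra is the signaling chain of both IL-4 receptors, and Msr1 and Cd163 are scavenger receptors for modified lipoprotein and for haemoglobin bound to haptoglobin. GM-CSF signals through JAK2 to STAT5, while IL-4 and IL-13 signal through STAT6.

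The libraries held between 16016736 and 22883108 counts assigned to genes. A gene was called at the detection floor in a library when it had 3 counts or fewer, which corresponded to between 0.124 and 0.192 CPM, the unit of counts scaled to the size of a library. Stat5a had 637 to 918 counts in the STAT5fl/fl libraries and 0 to 3 in the STAT5cKO libraries, and Stat5b had 977 to 1654 and 0 to 4, so that the targeted genes matched every label. All 8 macrophage markers examined were above the floor in every library, with Csf1r at 3825 to 4204 CPM. Ly6g, Epx, Prg2, Cpa3, Ncr1, Krt5 and Krt14, markers of granulocytes, mast cells, lymphocytes and epithelium, were at 0 in all 15. Marker levels also moved with genotype. The summed macrophage markers ranged from 24579 to 27855 CPM in STAT5fl/fl and from 30706 to 43442 CPM in STAT5cKO, where Lyz2 was the only one of the 8 called higher, and the 7 fibroblast and stromal markers summed to 5.42 to 9.19 CPM in STAT5fl/fl and 9.26 to 15.9 CPM in STAT5cKO. The 10 neutrophil markers summed to 4.92 to 8.68 CPM and 6.21 to 13.003 CPM, carried by Mmp8. Siglecf and Ccr3 carried the eosinophil and mast cell list, which summed in STAT5fl/fl and STAT5cKO to 5.23 to 5.46 and 3.58 to 4.69 CPM with DMEM, 12.9 to 13.5 and 5.37 to 7.56 CPM with rmGM-CSF, and 13.8 to 21.1 and 8.38 to 12.1 CPM with 4T1 CM, where edgeR called Siglecf lower in STAT5cKO. The 8 lymphocyte markers summed to at most 1.55 CPM. Among the 7 epithelial markers only Cdh1 exceeded 4 counts in a library, and the list summed to at most 0.137 CPM with DMEM, to 1.18 to 1.43 CPM in STAT5fl/fl and at most 0.0491 CPM in STAT5cKO with rmGM-CSF, and to 3.21 to 4.34 and 1.23 to 2.17 CPM with 4T1 CM. By edgeR Cdh1 was called lower in STAT5cKO with both treatments. The part of these differences in the results was not tested, and in bulk RNA fewer cells that express a gene cannot be told apart from less RNA per cell.

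Retnla and Chil3 had 0 counts in all 15 libraries. Arg1 had 0 counts in 9 libraries and was above the floor in 5, all of them treated with 4T1 CM. Nos2 was above the floor in 9 libraries and at 0 in 1. The other 6 genes, Acod1, Mrc1, Mgl2, Il4ra, Msr1 and Cd163, were above the floor in all 15. A filter that kept genes over 1 CPM in at least 2 libraries left 13005 genes for testing, 8 of the 10 markers among them. Of those, Nos2 passed through the 5 libraries with rmGM-CSF, so that its presence among the tested genes already depended on that treatment. Arg1 passed through 3 libraries with 4T1 CM, 2 of STAT5fl/fl and 1 of STAT5cKO, and Mgl2 through the 2 STAT5fl/fl libraries with rmGM-CSF, so that the presence of these genes depended on genotype as well as on treatment. The other 5 markers were over the filter level in every library.

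Levels of different genes were compared only as RPKM, the CPM divided by the exon length in kilobases. In STAT5fl/fl BMDMs with DMEM, Mrc1 at 29.6 ± 1.78 RPKM and Msr1 at 27.7 ± 1.15 RPKM (SD, n = 2) were the most abundant of the 10, at the 88.1 and 87.4 percentiles of all tested genes. Il4ra followed at 9.15 ± 0.224 RPKM and Acod1 at 2.06 ± 0.205 RPKM. Cd163 and Mgl2 were at 0.521 ± 0.159 and 0.325 ± 0.0323 RPKM. With rmGM-CSF, Acod1 moved from the 27.9 to the 97.4 percentile in STAT5fl/fl, at 124 ± 6.64 RPKM, and was the most abundant of the 10 in STAT5cKO, at 205 ± 34.5 RPKM (n = 3). With 4T1 CM, Il4ra led in both genotypes, at 153 ± 6.74 RPKM in STAT5fl/fl and 140 ± 11.8 RPKM in STAT5cKO, each at the 97.9 percentile. Where they were highest, Nos2 reached 0.783 ± 0.0642 RPKM and Arg1 1.04 ± 0.132 RPKM, at the 15.9 and 17.9 percentiles.

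**Figure D1:**
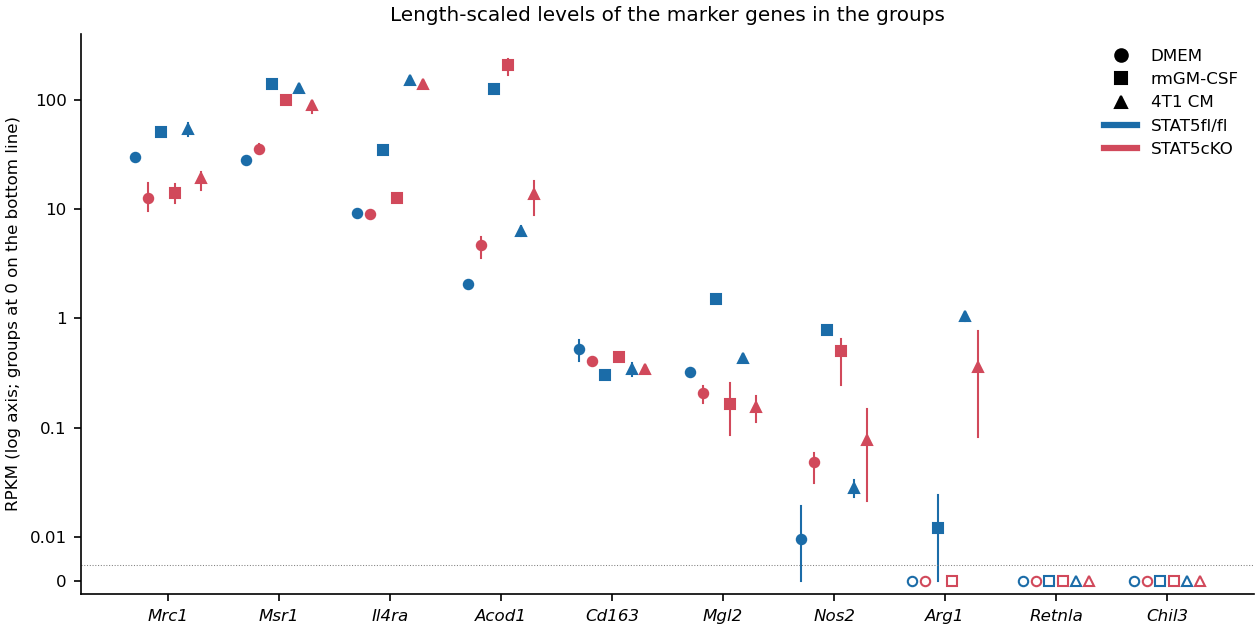
Mean RPKM of the 10 marker genes in the 6 groups on a log axis, with circles for DMEM, squares for rmGM-CSF and triangles for 4T1 CM, blue for STAT5fl/fl (n = 2) and red for STAT5cKO (n = 3); vertical lines span the lowest to the highest library, and open symbols on the bottom line are groups at 0. Mrc1, Msr1, Il4ra and Acod1 reach over 50 RPKM in at least 1 group, whereas Nos2, Mgl2 and Cd163 stay under 2 RPKM, Arg1 does so too, and Retnla and Chil3 are at 0.

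STAT5 binds DNA as a dimer at the palindrome TTCNNNGAA, and STAT6 also binds a form in which TTC and GAA stand 4 bases apart. RefSeq promoter windows on GRCm38.p6, from 250 bases before to 50 bases after the start site, were found for 7 of the 10 genes. Both palindromes read the same on either strand, and the matches found did not overlap each other. Of all 32851 such promoters, 8.3% held TTCNNNGAA, 6.95% held the wider form and 14.6% held either. Among the 7 markers, 1 held the first (Chil3) and 1 the second (Retnla). The stretches below lie before both the RefSeq start site and the gene start used for counting, run 5′ to 3′ in the direction of the gene, and carry the matched letters in capitals. The stretches of Retnla and Chil3 are shown because they hold the only matches and belong to the 2 genes with no counts. They lie at chr16:48842359-48842550 (plus strand) and chr3:106167565-106167814 (minus strand). Those of Mgl2, Il4ra and Mrc1 hold no match. Of the markers called lower in STAT5cKO than in STAT5fl/fl under rmGM-CSF, these had the largest fold changes. The stretches of Mgl2, Il4ra and Mrc1 lie at chr11:70130107-70130328, chr7:125552021-125552119 and chr2:14229164-14229391, all on the plus strand.
Retnla: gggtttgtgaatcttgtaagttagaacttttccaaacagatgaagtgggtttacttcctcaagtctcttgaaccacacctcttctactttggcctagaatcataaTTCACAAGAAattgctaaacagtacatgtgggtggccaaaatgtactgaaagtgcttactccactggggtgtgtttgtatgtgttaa
Chil3: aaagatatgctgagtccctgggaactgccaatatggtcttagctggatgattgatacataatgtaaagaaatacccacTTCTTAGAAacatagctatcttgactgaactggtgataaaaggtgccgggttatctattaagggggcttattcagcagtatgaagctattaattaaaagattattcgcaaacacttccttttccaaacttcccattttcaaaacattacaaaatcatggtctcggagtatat
Mgl2: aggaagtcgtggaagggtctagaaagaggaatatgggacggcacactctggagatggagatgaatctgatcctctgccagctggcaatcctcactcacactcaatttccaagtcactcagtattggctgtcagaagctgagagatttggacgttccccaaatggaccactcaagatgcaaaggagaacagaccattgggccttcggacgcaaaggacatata
Il4ra: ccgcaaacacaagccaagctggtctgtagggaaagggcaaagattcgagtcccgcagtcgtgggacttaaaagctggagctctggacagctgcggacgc
Mrc1: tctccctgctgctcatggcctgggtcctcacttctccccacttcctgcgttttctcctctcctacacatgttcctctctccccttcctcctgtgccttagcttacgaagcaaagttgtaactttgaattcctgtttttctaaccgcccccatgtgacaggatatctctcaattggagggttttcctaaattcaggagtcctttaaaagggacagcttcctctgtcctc

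The letters TTCTTAGAA of Chil3 begin at position -172 from the start site and TTCACAAGAA of Retnla at position -145. The same TTCTTAGAA also begins at position -154 in the window of Socs3, 1 of the classical companions described further on. Socs3 was the only companion whose window was looked up, so the match says nothing about the companions as a group. A match is only a run of letters in these windows, and binding was not measured in these libraries.

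Before the genes are taken in turn, the calls can be counted. A gene was called when its edgeR quasi-likelihood p, adjusted over the 13005 genes by the Benjamini-Hochberg method, was under 0.01. With DMEM, 1 of the 10 markers was called between genotypes, lower in STAT5cKO, where 2.49% of all tested genes were called and 1.55% were lower. With rmGM-CSF, 4 were called, all lower in STAT5cKO, against 9.8% of all genes called and 6.24% lower. With 4T1 CM, 3 were called, 1 higher and 2 lower, against 7.7% of all genes called, 4.13% higher and 3.57% lower. In response to rmGM-CSF, 5 rose in STAT5fl/fl, where 28.5% of all genes were called, 15.9% higher and 12.6% lower, and 4 rose in STAT5cKO, where 23.5% were called, 13.3% higher and 10.2% lower. In response to 4T1 CM, 5 rose in STAT5fl/fl, where 37.4% were called, 19.2% higher and 18.2% lower, and 4 rose in STAT5cKO, where 37.6% were called, 19.3% higher and 18.4% lower. The response itself differed between genotypes for 3 markers with rmGM-CSF, all lower in STAT5cKO, where 3.11% of all genes were called and 2.22% were lower, and for 1 with 4T1 CM, where 1.27% were called and 0.538% were lower. Counted over the 5 markers that were over the filter level in every library, edgeR called 1, 3 and 3 between genotypes with DMEM, rmGM-CSF and 4T1 CM, 3 in each genotype in response to rmGM-CSF, 4 in STAT5fl/fl and 3 in STAT5cKO in response to 4T1 CM, and 2 and 1 for the differences between responses. No marker was called lower in response to either treatment by edgeR, although Cd163 had unadjusted p under 0.05 for both treatments in STAT5fl/fl. Groups that do not overlap were frequent among all tested genes, at 39.9%, 49% and 39.3% between genotypes with DMEM, rmGM-CSF and 4T1 CM, at 71.7% and 48.2% between rmGM-CSF and DMEM in STAT5fl/fl and STAT5cKO, and at 74.2% and 54.5% between 4T1 CM and DMEM, so that a gap between such small groups says little by itself. The median log2 fold change of all tested genes lay between -0.01 and 0.02 in each of these 9 comparisons. Comparisons that share the same DMEM libraries, or the same STAT5fl/fl libraries, are not independent of one another. The low counts of Mgl2, Arg1 and Nos2 leave their fold changes with wider errors than those of the other markers.

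**Figure D2:**
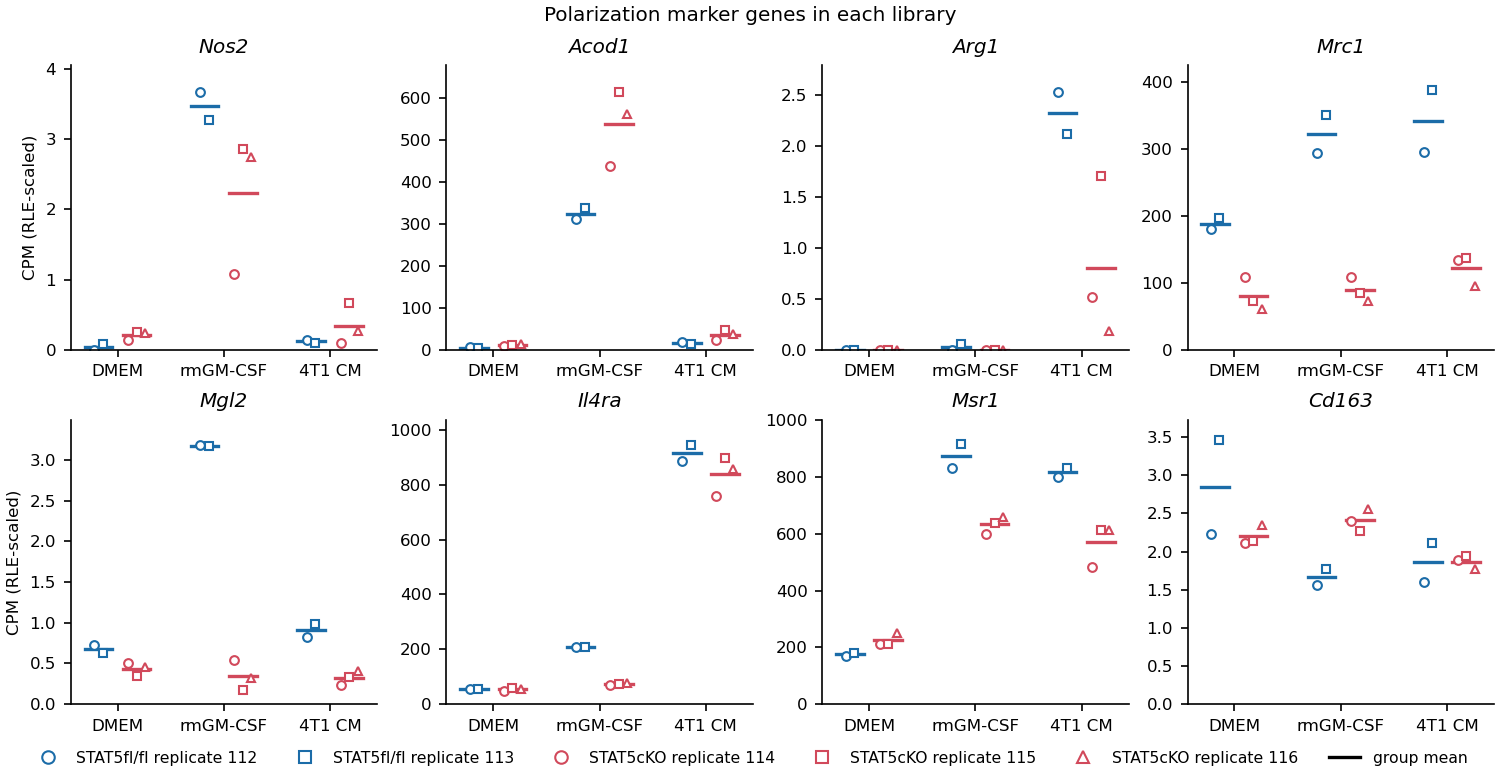
CPM of the 8 detected marker genes in each of the 15 libraries, on linear axes that start at 0, with 1 symbol per replicate number and a bar at the group mean, blue for STAT5fl/fl and red for STAT5cKO. Nos2 and Acod1 are high with rmGM-CSF, Arg1 appears with 4T1 CM, Mgl2 is high only in the 2 STAT5fl/fl libraries with rmGM-CSF (3.18 and 3.17 CPM), and Cd163 stays between 1.56 and 3.46 CPM.

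Nos2, on chromosome 11 (GRCm38 chr11:78920787-78960254, plus strand), was induced by rmGM-CSF and not detectably by 4T1 CM. With DMEM, Nos2 had 0 and 2 counts in the STAT5fl/fl libraries and 3, 6 and 6 in those of STAT5cKO. With rmGM-CSF, Nos2 had 59 and 61 counts in STAT5fl/fl and 22, 64 and 43 in STAT5cKO. With 4T1 CM, Nos2 had 3 and 2 counts in STAT5fl/fl and 2, 14 and 6 in STAT5cKO. The rmGM-CSF libraries lay above all others in both genotypes. In STAT5fl/fl the ratio of scaled counts was 79.0, with a 95% exact counting interval of 21.4 to 660 that covers counting error only, since the DMEM group held 2 counts in all (edgeR adjusted p = 2.5e-06). In STAT5cKO the rise was 9.91-fold, a log2 fold change of 3.31 ± 0.49 (SE, edgeR adjusted p = 3.4e-05). With 4T1 CM the log2 fold change in STAT5cKO was 0.64 ± 0.75 (edgeR adjusted p = 0.51). The difference between the responses to rmGM-CSF was -2.81 ± 1.36 on the log2 scale and was not called (edgeR adjusted p = 0.35). Its error is wide because of the 2 counts in the STAT5fl/fl DMEM group. Between genotypes under rmGM-CSF, Nos2 measured 2.23 ± 0.996 CPM in STAT5cKO and 3.48 ± 0.285 CPM in STAT5fl/fl, a log2 difference of -0.65 ± 0.32 that was not called (edgeR adjusted p = 0.19), with replicate 114 the lowest of the 3 STAT5cKO libraries at 1.08 CPM.

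Acod1 (chr14:103046977-103056573, plus strand) had the largest response to rmGM-CSF among the markers above the floor with DMEM, and its STAT5cKO libraries lay above those of STAT5fl/fl under every treatment. With DMEM, Acod1 measured 5.78 and 5.02 CPM in STAT5fl/fl and 9.24, 12.8 and 14.6 CPM in STAT5cKO. With rmGM-CSF, Acod1 measured 312 and 337 CPM in STAT5fl/fl and 438, 615 and 561 CPM in STAT5cKO. With 4T1 CM, Acod1 measured 18.5 and 14.8 CPM in STAT5fl/fl and 23.002, 47.4 and 37.5 CPM in STAT5cKO. The 2 genotypes therefore did not overlap under any treatment. The genotype difference was called with 4T1 CM, at a log2 fold change of 1.11 ± 0.24 (edgeR adjusted p = 0.0043), and fell short of the threshold with DMEM, at 1.18 ± 0.30 (adjusted p = 0.026), and with rmGM-CSF, at 0.73 ± 0.19 (adjusted p = 0.015). Which of the 3 was called depended on single replicates. Without replicate 114 the edgeR adjusted p was 0.000305 with DMEM and 4.1e-05 with rmGM-CSF, and without the filter on low counts it was 0.0018 and 0.00061. Without replicate 112, 113, 115 or 116 in turn the 4T1 CM difference had edgeR adjusted p of 0.032, 0.12, 0.018 and 0.016, and with only the 5 libraries of that treatment it had 0.035.

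The rise of Acod1 with rmGM-CSF was 60.2-fold in STAT5fl/fl (log2 fold change 5.91 ± 0.29, edgeR adjusted p = 3.2e-11) and 43.9-fold in STAT5cKO (5.46 ± 0.22, adjusted p = 2.9e-12), and the difference between these responses was -0.45 ± 0.36 on the log2 scale (adjusted p = 0.69). With 4T1 CM, Acod1 rose 3.09-fold in STAT5fl/fl (edgeR adjusted p = 0.00042, and 0.024 and 0.016 without replicate 112 and replicate 113) and 2.94-fold in STAT5cKO (adjusted p = 1e-05). The responses to 4T1 CM differed by -0.07 ± 0.39 on the log2 scale (edgeR adjusted p = 0.97).

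Arg1 (chr10:24915221-24927484, minus strand) was above the floor with 4T1 CM and with no other treatment. With DMEM, Arg1 had 0 counts in all 5 libraries. With rmGM-CSF, Arg1 had 0 and 1 counts in STAT5fl/fl and 0 in the 3 STAT5cKO libraries. With 4T1 CM, Arg1 had 52 and 41 counts in STAT5fl/fl and 11, 36 and 4 in STAT5cKO. All 5 libraries with 4T1 CM therefore lay above the floor, those of STAT5fl/fl at 2.32 ± 0.293 CPM (n = 2) and those of STAT5cKO at 0.801 ± 0.798 CPM (n = 3). Measured against the floor of 3 counts per library, Arg1 was at least 17.7-fold higher with 4T1 CM than with DMEM in STAT5fl/fl and at least 6.13-fold higher in STAT5cKO (edgeR adjusted p = 2e-04 and 0.0021). Without replicate 115 the STAT5cKO level was at least 2.68-fold higher. Leaving out replicate 112 or 113 brought the STAT5fl/fl p to 0.019 or 0.016 in edgeR. The genotypes did not overlap, and the log2 difference of -1.55 ± 0.49 was not called (edgeR adjusted p = 0.049). The STAT5cKO libraries spread over 1.70 CPM in replicate 115, 0.521 CPM in replicate 114 and 0.181 CPM in replicate 116, and without replicate 115 the difference was -2.72 (edgeR adjusted p = 0.0011). Whether the response to 4T1 CM differed between genotypes could not be estimated for Arg1, because both DMEM groups were at 0.

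Mrc1 (chr2:14229392-14332057, plus strand), the mannose receptor, was lower in STAT5cKO under all 3 treatments. With DMEM, Mrc1 measured 180 and 196 CPM in STAT5fl/fl and 109, 72.9 and 60.4 CPM in STAT5cKO. With rmGM-CSF, Mrc1 measured 293 and 350 CPM in STAT5fl/fl and 108, 84.9 and 72.7 CPM in STAT5cKO. With 4T1 CM, Mrc1 measured 296 and 388 CPM in STAT5fl/fl and 135, 138 and 94.9 CPM in STAT5cKO. Every STAT5cKO library lay below every STAT5fl/fl library, whatever the treatment. The level in STAT5cKO was 2.34-fold lower with DMEM (log2 fold change -1.22 ± 0.21, edgeR adjusted p = 0.0018), 3.62-fold lower with rmGM-CSF (-1.86 ± 0.21, adjusted p = 4.6e-06) and 2.79-fold lower with 4T1 CM (-1.48 ± 0.20, adjusted p = 8.5e-05). The call with DMEM was lost without replicate 112, 113 or 115 (edgeR adjusted p = 0.020, 0.045 and 0.013).

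Mrc1 rose 1.81-fold with 4T1 CM in STAT5fl/fl (log2 fold change 0.86 ± 0.22, edgeR adjusted p = 0.0043), and that call was lost without replicate 112 or 113 (adjusted p = 0.035 and 0.13) and in DESeq2 (adjusted p = 0.013). Its 1.71-fold difference with rmGM-CSF in STAT5fl/fl (0.77 ± 0.22, edgeR adjusted p = 0.011) and its 1.52-fold difference with 4T1 CM in STAT5cKO (0.60 ± 0.19, adjusted p = 0.014) were just outside the threshold. The difference between the responses to rmGM-CSF was -0.63 ± 0.29 (edgeR adjusted p = 0.33). In STAT5cKO with rmGM-CSF, Mrc1 measured 88.6 ± 18.1 CPM against 80.7 ± 25.2 CPM with DMEM, a log2 difference of 0.14 ± 0.19 (edgeR adjusted p = 0.62). Without replicate 114 or 116 the rmGM-CSF difference in STAT5fl/fl was called (edgeR adjusted p = 0.0013 and 0.0017), and without replicate 114 so was the 4T1 CM difference in STAT5cKO (adjusted p = 0.0012).

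Mgl2 (chr11:70130329-70137550, plus strand) was the marker with the largest genotype difference, and its response to rmGM-CSF differed between genotypes. With DMEM, Mgl2 had 16 and 15 counts in STAT5fl/fl and 11, 8 and 11 in STAT5cKO. With rmGM-CSF, Mgl2 had 51 and 59 counts in STAT5fl/fl and 11, 4 and 5 in STAT5cKO. With 4T1 CM, Mgl2 had 17 and 19 counts in STAT5fl/fl and 5, 7 and 9 in STAT5cKO. The 2 STAT5fl/fl libraries with rmGM-CSF stood above the other 13, and the genotypes did not overlap under any treatment. Mgl2 rose 4.64-fold with rmGM-CSF in STAT5fl/fl (log2 fold change 2.21 ± 0.29, edgeR adjusted p = 9e-06) and measured -0.34 ± 0.43 in STAT5cKO (adjusted p = 0.58), a difference between responses of -2.55 ± 0.52 (adjusted p = 0.0059). Leaving out any 1 of the 5 replicate numbers raised that last p above the threshold, to between 0.015 and 0.082. Under rmGM-CSF, Mgl2 was 9.12-fold lower in STAT5cKO (-3.19 ± 0.31, edgeR adjusted p = 9.8e-07), whereas with 4T1 CM the log2 difference was -1.45 ± 0.40 (adjusted p = 0.022) and with DMEM -0.64 ± 0.39 (adjusted p = 0.36). Of the 50-base windows in Mgl2 transcripts, 13.1% also occur in transcripts of other genes, its neighbour Clec10a among them, so that reads there are uncertain. Because Mgl2 was among the tested genes only through the group in which it was highest, its calls were also read without the filter, where the genotype difference under rmGM-CSF had an edgeR adjusted p of 5.9e-09 and the difference between responses 0.0052. Mgl2 is also used to mark a subset of dendritic cells, and the summed level of 8 dendritic cell markers was highest in the same group, at 9.71 to 11.5 CPM against 2.46 to 4.30 CPM in the other 5 groups, with 3 to 5 of the 8 above the floor in every library of a group. That sum was carried by 2 of the 8, the only ones that passed the filter. Batf3 measured 6.05 to 7.14 CPM there and at most 0.970 CPM in the other groups, and Zbtb46 measured 1.66 to 3.86 CPM there and 2.23 to 2.90 CPM in STAT5cKO with rmGM-CSF. Ccr7 and Cd209a, which did not pass the filter, had their highest library in STAT5cKO with 4T1 CM instead. Ccr7 measured 0.161 to 0.249 CPM in STAT5fl/fl with rmGM-CSF and 0.805 to 1.89 CPM in STAT5cKO with 4T1 CM. Cd209a measured 0.161 to 0.561 and 0.378 to 1.63 CPM in these groups. Xcr1 had at most 1 count and Flt3 at most 4 counts in any library. Cdh1 was likewise lower in STAT5cKO under rmGM-CSF, at up to 0.0491 CPM against 1.13 to 1.31 CPM in STAT5fl/fl. Their part in the Mgl2 result was not tested.

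Retnla (chr16:48842551-48844461, plus strand) and Chil3 (chr3:106147554-106167564, minus strand), whose upstream sequences are printed above, had no count in any library. A count of 0 allows up to 3 counts, or 0.124 to 0.192 CPM, in a library, so lower levels were not detectable at this depth. No 50-base window of Retnla was shared with another gene, while 26.9% of those of Chil3 were shared, with Chil4 and Gm6522, and the remaining windows of Chil3 also gave no count.

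Il4ra (chr7:125552120-125579474, plus strand) rose with both treatments, and its difference between genotypes was called with rmGM-CSF and not with the other treatments. With DMEM, Il4ra measured 54.0 and 55.9 CPM in STAT5fl/fl and 49.4, 58.0 and 55.01 CPM in STAT5cKO. With rmGM-CSF, Il4ra measured 208 and 209 CPM in STAT5fl/fl and 71.5, 74.5 and 78.7 CPM in STAT5cKO. With 4T1 CM, Il4ra measured 887 and 944 CPM in STAT5fl/fl and 760, 899 and 857 CPM in STAT5cKO. The genotypes overlapped with DMEM and with 4T1 CM and were apart with rmGM-CSF. There the level in STAT5cKO was 2.78-fold lower (log2 fold change -1.48 ± 0.08, edgeR adjusted p = 4.4e-10), against -0.02 ± 0.08 with DMEM (adjusted p = 0.92) and -0.13 ± 0.07 with 4T1 CM (adjusted p = 0.28). The rise with rmGM-CSF was 3.79-fold in STAT5fl/fl and 1.38-fold in STAT5cKO, and both were called (edgeR adjusted p = 1.4e-11 and 8.5e-05). The difference between those responses was -1.46 ± 0.11 on the log2 scale (edgeR adjusted p = 3.3e-07) and stayed called under all alternatives tried. With 4T1 CM, Il4ra rose 16.7-fold in STAT5fl/fl and 15.5-fold in STAT5cKO (edgeR adjusted p = 4.6e-15 and 1.8e-16), and these responses differed by -0.11 ± 0.11 (adjusted p = 0.74).

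Msr1 (chr8:39581685-39642673, minus strand) also rose with both treatments in both genotypes, by less in STAT5cKO. With DMEM, Msr1 measured 171 and 181 CPM in STAT5fl/fl and 213, 212 and 251 CPM in STAT5cKO. With rmGM-CSF, Msr1 measured 832 and 918 CPM in STAT5fl/fl and 601, 640 and 661 CPM in STAT5cKO. With 4T1 CM, Msr1 measured 799.7 and 834 CPM in STAT5fl/fl and 483, 615 and 614 CPM in STAT5cKO. The STAT5cKO libraries thus lay above those of STAT5fl/fl with DMEM and below them after either treatment. The log2 difference with DMEM was 0.36 ± 0.10 (edgeR adjusted p = 0.040, and 0.0083 in DESeq2), that with rmGM-CSF was -0.47 ± 0.10 (adjusted p = 0.0024) and that with 4T1 CM was -0.52 ± 0.10 (adjusted p = 0.0013). Msr1 rose 4.97-fold with rmGM-CSF in STAT5fl/fl and 2.81-fold in STAT5cKO, a difference of -0.82 ± 0.14 on the log2 scale (edgeR adjusted p = 0.0012). It rose 4.64-fold and 2.53-fold with 4T1 CM, a difference of -0.87 ± 0.14 (adjusted p = 0.0016). These 4 genotype calls rested on having both STAT5fl/fl replicates. Without replicate 112 or 113 the edgeR adjusted p was 0.015 or 0.088 under rmGM-CSF, 0.016 or 0.040 under 4T1 CM, and 0.025 to 0.051 for the differences between responses. With only the 5 libraries with 4T1 CM it was 0.021.

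Cd163 (chr6:124304656-124330527, plus strand) was low throughout and was called in none of the 9 comparisons. Its counts ranged from 25 to 82 per library and its group means from 1.66 ± 0.151 CPM in STAT5fl/fl with rmGM-CSF to 2.84 ± 0.869 CPM in STAT5fl/fl with DMEM, where replicate 113 had 3.46 CPM and replicate 112 had 2.23 CPM. The lowest edgeR adjusted p was 0.021, for a log2 difference of -0.77 ± 0.25 between those groups, and unadjusted p were under 0.05 in 3 of the 9 comparisons.

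**Figure D3:**
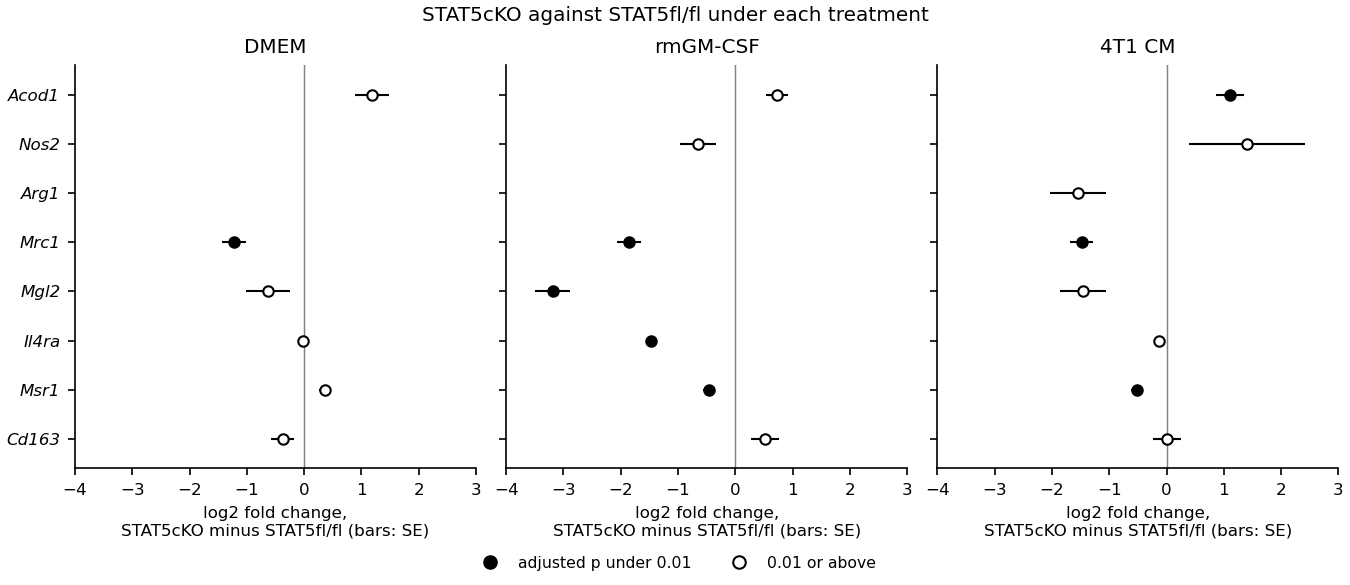
Log2 fold change of STAT5cKO against STAT5fl/fl for the marker genes under DMEM, rmGM-CSF and 4T1 CM, with standard errors; filled points have an edgeR adjusted p under 0.01, and genes are left out where a group was at or near 0 counts. Mrc1 is lower in STAT5cKO in all 3 panels (-1.22, -1.86 and -1.48), Il4ra and Mgl2 are called only with rmGM-CSF (-1.48 and -3.19), and Acod1 lies to the right of 0 in each.

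**Figure D4:**
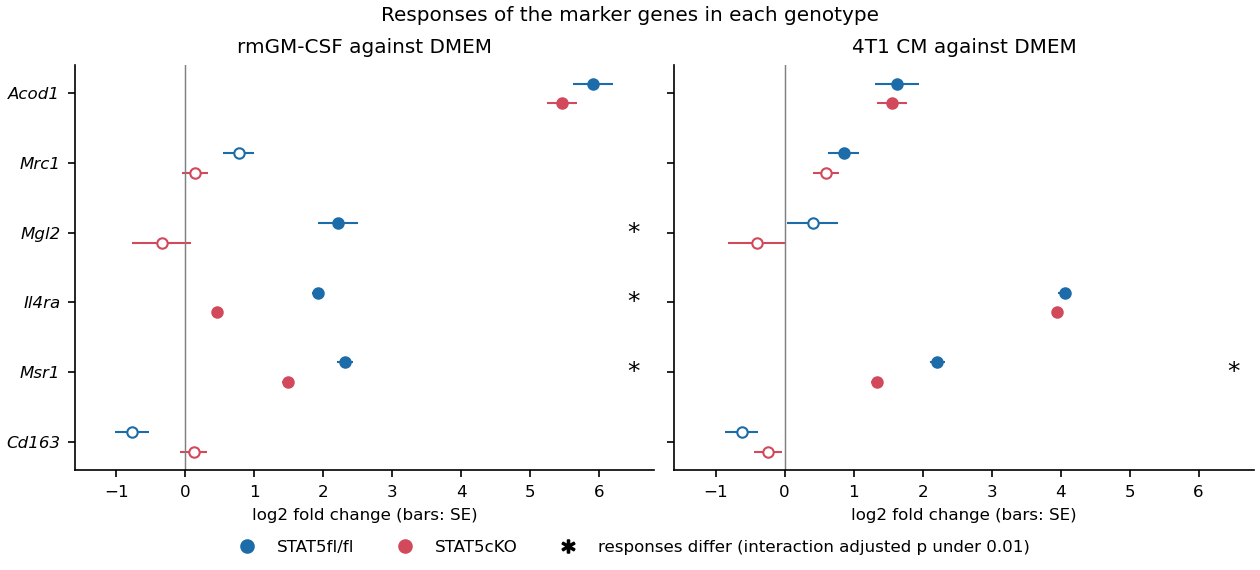
Log2 fold change of rmGM-CSF (left) and 4T1 CM (right) against DMEM in STAT5fl/fl (blue) and STAT5cKO (red), with standard errors; filled points have an edgeR adjusted p under 0.01 and asterisks mark responses that differed between genotypes. With rmGM-CSF the 2 genotypes separate for Mgl2, Il4ra and Msr1, and with 4T1 CM for Msr1; Nos2 and Arg1 are left out because their DMEM counts were at or near 0.

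The order of the groups differed from marker to marker. For Acod1 the 6 groups did not overlap with their neighbours in order, from STAT5cKO with rmGM-CSF down to STAT5fl/fl with DMEM. For Mrc1 the 3 STAT5fl/fl groups came first and the 3 STAT5cKO groups last, and the only gaps were those between STAT5fl/fl with rmGM-CSF and with DMEM, and between STAT5fl/fl with DMEM and STAT5cKO with 4T1 CM. For Il4ra both 4T1 CM groups overlapped, as did both DMEM groups, with each rmGM-CSF group apart between them. For Msr1 the 2 treated STAT5fl/fl groups overlapped, and so did the 2 treated STAT5cKO groups. Across the 15 libraries, which share groups, Pearson's r of log2 CPM was 0.94 between Nos2 and Acod1, the 2 classical markers, and 0.88 between Arg1 and Il4ra, whereas Nos2 and Arg1 had r = -0.30 and Mrc1 and Acod1 had r = -0.07. The alternative markers Arg1 and Mgl2 had r = -0.02. Arg1 was above the floor in only 5 libraries and Nos2 in 9, so their values of r rest largely on the gap between those libraries and the rest. These values describe 15 libraries in 6 groups and carry no test.

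By the same measure, and for markers whose group means spanned more than 1 on the log2 scale, the other genes most alike in pattern were Tlr2 (r = 0.988) and Sod2 (0.987) for Acod1, and Vasp (0.970) and Nupr1 (0.967) for Nos2. For Il4ra they were Fosl2 (0.995) and Ttc39b (0.988), and for Msr1 Rbpj (0.990) and Spred1 (0.985). C1qb (0.960) and C1qc (0.950), chains of complement C1q, were most like Mrc1. Clec7a (0.938), the β-glucan receptor, and Ehd4 (0.931) were most like Mgl2, and Scd2 (0.960) and Pmvk (0.957) were most like Arg1. Spearman's rank correlation was lower for these 4, at 0.818 and 0.718 with Mgl2 and 0.779 and 0.831 with Arg1.

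Other genes of both activation states were read from lists of 20. Of the 20 classical companions, 15 were tested. In response to rmGM-CSF, 13 rose in STAT5fl/fl and 15 in STAT5cKO, with median log2 fold changes of 2.52 and 1.79. Of all tested genes, 15.9% and 13.3% rose, with medians of -0.0062 and -0.0035. Socs3, an inhibitor of cytokine signaling, rose from 2.51 ± 0.143 to 667 ± 19.3 CPM in STAT5fl/fl and from 2.40 ± 0.255 to 171 ± 9.40 CPM in STAT5cKO. Il1b, the precursor of interleukin-1β, rose from 8.58 ± 2.60 to 1081 ± 223 CPM and from 12.1 ± 2.86 to 379 ± 20.3 CPM. Tnf rose to 646 ± 18.8 CPM and 717 ± 12.3 CPM. Under rmGM-CSF, 9 of the 15 were lower in STAT5cKO and none was higher, with a median of -0.69. Among all tested genes 6.24% were lower there, with a median of 0.0005. The 4 companions with the smallest p were Socs3 (-1.96 ± 0.06), Cxcl10 (-1.83 ± 0.13), Irf5 (-0.69 ± 0.06) and Il1b (-1.51 ± 0.16). The response to rmGM-CSF was smaller in STAT5cKO for 5, which were those 4 and the costimulatory ligand Cd80 (-1.01 ± 0.21, named after its values were seen), against 2.22% of all tested genes. Acod1 differed from all of these in direction under rmGM-CSF, at 0.73 ± 0.19. With DMEM edgeR called no classical companion, and 6 had an unadjusted p under 0.05. With 4T1 CM, Ptgs2 (cyclooxygenase 2) at 1.004 ± 0.09 and Fpr2 at 1.94 ± 0.45 were higher in STAT5cKO, and Socs3 at -0.57 ± 0.06 and Irf5 at -0.23 ± 0.06 were lower.

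Of the 20 alternative companions, 19 were tested. In response to rmGM-CSF, 11 rose in STAT5fl/fl with a median of 1.07, and 7 rose and 1, Irf4, fell by 0.63 ± 0.12 on the log2 scale in STAT5cKO, with a median of 0.38. Of all tested genes, 15.9% rose in STAT5fl/fl, and 13.3% rose and 10.2% fell in STAT5cKO. The chemokine gene Ccl17 had no count in the STAT5fl/fl libraries with DMEM, 396 and 406 counts with rmGM-CSF and 51 to 77 with 4T1 CM, and never more than 1 count in a STAT5cKO library. With rmGM-CSF its level was 23.2 ± 2.04 CPM in STAT5fl/fl against 0.0362 ± 0.0328 CPM in STAT5cKO, a count ratio of 676 with a 95% counting interval of 187 to 5589. Under rmGM-CSF, 8 companions were lower in STAT5cKO and none was higher, against 6.24% of all tested genes that were lower. Ccl17, counted among the 8, was over the filter level of 1 CPM only in treated STAT5fl/fl libraries. Its place among the tested genes, and in the counts of this list with either treatment, therefore depended on genotype and treatment. Egr2 (-1.42 ± 0.09), Irf4 (-2.05 ± 0.12) and Clec7a (-1.18 ± 0.08) came next after Ccl17 in p. With 4T1 CM, 4 were lower, namely Egr2 (-2.03 ± 0.10), Ccl17, Clec7a (-0.48 ± 0.08) and the scavenger receptor Cd36 (-1.08 ± 0.15), while Klf4 (0.57 ± 0.12) and Il10 (1.63 ± 0.37) were higher. Among all tested genes 3.57% were lower and 4.13% higher in STAT5cKO with that treatment. The response to rmGM-CSF was lower in STAT5cKO for Egr2 (-1.05 ± 0.13), Irf4 (-1.02 ± 0.17), Clec7a (-0.96 ± 0.11) and the chemokine gene Ccl22 (-2.60 ± 0.51). Egr2, a transcription factor of alternative activation, went from 44.5 ± 2.55 to 76.1 ± 5.02 CPM with 4T1 CM in STAT5fl/fl and from 34.5 ± 3.53 to 18.6 ± 2.80 CPM in STAT5cKO, a difference between responses of -1.66 ± 0.14 (edgeR adjusted p = 8.1e-06). No classical companion was called there by edgeR, with 5 at an unadjusted p under 0.05. With DMEM, Irf4 (-1.03 ± 0.11) and Stab1 (-0.58 ± 0.11) were lower in STAT5cKO, where the median of the list was 0.05. In response to 4T1 CM, 11 alternative companions rose and 2 fell in STAT5fl/fl, and 6 rose and 3 fell in STAT5cKO. Of all tested genes, 19.2% rose and 18.2% fell in STAT5fl/fl, and 19.3% rose and 18.4% fell in STAT5cKO. The transcription factors Irf4 (-1.81 ± 0.14 and -0.997 ± 0.13) and Pparg (-1.48 ± 0.12 and -1.11 ± 0.10) fell in both genotypes. Tgm2, transglutaminase 2, reached 3734 ± 5.12 and 2902 ± 279 CPM from 154 ± 11.3 and 159 ± 21.2 CPM. Of the classical companions 10 rose and 1 fell in STAT5fl/fl with 4T1 CM, and 9 rose and 1 fell in STAT5cKO, the one that fell being the transcription factor Irf1 in each (-0.91 ± 0.09 and -0.80 ± 0.08).

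**Figure D5:**
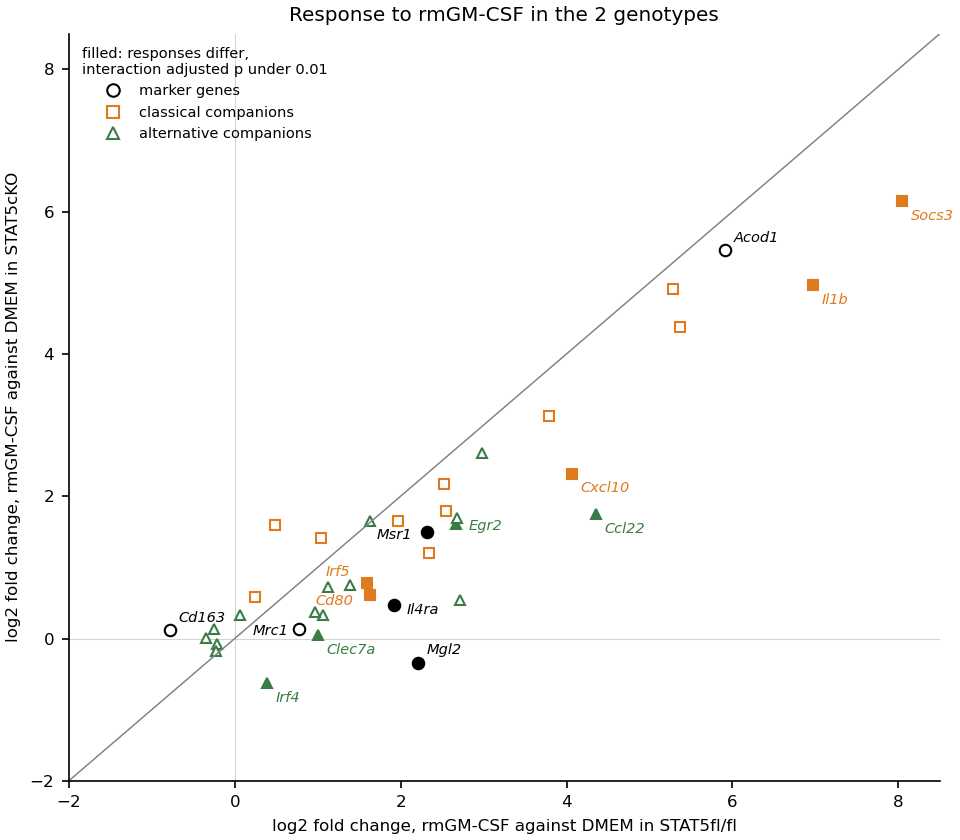
Log2 fold change of rmGM-CSF against DMEM in STAT5fl/fl (horizontal) and STAT5cKO (vertical) for marker genes (circles), classical companions (squares) and alternative companions (triangles) whose DMEM counts were above the floor; the diagonal marks equal responses and filled symbols mark responses that differed (edgeR adjusted p under 0.01). Every filled symbol lies below the diagonal, Socs3 and Il1b farthest to the right at 8.05 and 6.97, and Acod1 is an open symbol at 5.91 and 5.46.

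Of 12 paralogs of the markers, 3 passed the filter. Arg2, the mitochondrial arginase, measured 25.2 ± 2.89 CPM with DMEM, 126 ± 15.5 CPM with rmGM-CSF and 70.2 ± 4.02 CPM with 4T1 CM in STAT5fl/fl, against 26.3 ± 6.21, 41.5 ± 6.46 and 54.9 ± 12.04 CPM in STAT5cKO. It was present in every group in which Arg1 was at the floor, and its genotype difference was called with rmGM-CSF (-1.61 ± 0.17, edgeR adjusted p = 3.1e-06). Clec10a (CD301a), the neighbour and paralog of Mgl2, measured 5.84 ± 0.562 CPM with DMEM and 23.8 ± 2.71 CPM with rmGM-CSF in STAT5fl/fl, and 4.36 ± 1.66 and 4.82 ± 0.822 CPM in STAT5cKO. Its response to rmGM-CSF differed by -1.88 ± 0.35 (edgeR adjusted p = 0.0025). Nos1 stayed at 0.590 to 1.44 CPM in the group means and was not called. Chil1, Chil4, Retnlb, Retnlg and Cd163l1 had no count in any library.

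Of 12 genes listed for the arginine and itaconate pathways, all were tested. The list includes Irf8, which is a transcription factor and not an enzyme or transporter of these pathways. The cationic amino acid transporter gene Slc7a2, which brings arginine into the cell, rose with rmGM-CSF to 334 ± 3.88 CPM in STAT5fl/fl and 164 ± 37.5 CPM in STAT5cKO, from 85.3 ± 2.77 and 64.0 ± 14.6 CPM. It was lower in STAT5cKO with rmGM-CSF (-1.03 ± 0.18) and with 4T1 CM (-0.97 ± 0.18). Gch1, which makes the cofactor of nitric oxide synthase, rose with rmGM-CSF from 29.9 ± 0.0920 to 101 ± 0.710 CPM in STAT5fl/fl and from 32.4 ± 0.146 to 89.5 ± 3.31 CPM in STAT5cKO. Odc1, which uses ornithine to make polyamines, rose with 4T1 CM from 10.5 ± 0.443 to 51.6 ± 12.8 CPM and from 11.2 ± 0.305 to 78.8 ± 4.47 CPM, and was higher in STAT5cKO there (0.61 ± 0.11). Irf8, a transcription factor, was lower in STAT5cKO under rmGM-CSF (-0.76 ± 0.07) and under 4T1 CM (-0.48 ± 0.07). Of the list, 3 rose in STAT5fl/fl with rmGM-CSF, while 3 rose and Irf8 fell (-0.51 ± 0.06) in STAT5cKO, and 6 and 7 rose with 4T1 CM, with list medians between 0.17 and 0.47. Of all tested genes, 15.9% and 13.3% rose with rmGM-CSF and 19.2% and 19.3% with 4T1 CM in STAT5fl/fl and STAT5cKO.

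Of 10 other genes of IL-4 and IL-13 signaling, 7 were tested. With rmGM-CSF, 4 rose and the adaptor gene Irs2 fell (-0.59 ± 0.13) in STAT5fl/fl, and 4 rose in STAT5cKO. With 4T1 CM, 4 rose in STAT5fl/fl and 6 in STAT5cKO. The shares of all tested genes that rose were 15.9% and 13.3% with rmGM-CSF and 19.2% and 19.3% with 4T1 CM. Il13ra1, the partner of Il4ra in the receptor shared with IL-13, rose with 4T1 CM from 9.54 ± 0.942 to 36.7 ± 0.958 CPM in STAT5fl/fl and from 10.03 ± 1.03 to 25.0 ± 5.39 CPM in STAT5cKO. Stat6 rose with rmGM-CSF by 0.34 ± 0.06 and 0.27 ± 0.05 on the log2 scale. Between genotypes edgeR called none of the 7 with DMEM or with rmGM-CSF, the condition in which Il4ra differed by -1.48 ± 0.08, and 3 and 2 of them had an unadjusted p under 0.05. With 4T1 CM, Il2rg was higher in STAT5cKO (0.58 ± 0.13) and Il13ra1 lower (-0.55 ± 0.13).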

How the data were processed

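Libraries were stranded TruSeq preparations of RNA from BMDMs. Per the labels and the study's methods, the authors trimmed reads with Trimmomatic 0.33, aligned them with HISAT2 2.1.0 and counted reverse-stranded, properly paired fragments per gene of the Ensembl GRCm38 annotation with featureCounts 1.6.2. The deposited values are raw counts for 55385 genes in 15 libraries. Reads with several equal alignments could be lost or split, which bears on Chil3 and Mgl2.

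From the counts, genes over 1 CPM in at least 2 libraries were kept (13005), scaled by the RLE method and fitted in edgeR 4.0.16 (R 4.3.3) by quasi-likelihood with 6 group means, so that all groups shared 1 estimate of spread (common biological coefficient of variation 0.0787). The test of a difference between responses was the interaction of genotype and treatment. Genes with a Benjamini-Hochberg adjusted p under 0.01 over all tested genes were called. CPM and RPKM were computed with the RLE-scaled library sizes and the gene lengths of the table. Values are mean ± SD over biological replicates, and log2 fold changes are given ± SE.

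The labels number the biological replicates and do not say that libraries with 1 number come from 1 animal. The fit without a block followed the study's design, and fits with the number as a block were alternatives. Other alternatives were TMM scaling, no filter, the likelihood ratio test, DESeq2 1.42.0, a threshold of 0.05, only the 5 libraries of a treatment and leaving out each replicate. P-values of the main fit rest on a spread pooled over the 6 groups, with information shared across genes and the 15 libraries taken as independent. They do not measure the spread of the 2 and 3 biological replicates of a comparison alone.

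The markers, gene lists and tests were chosen with earlier results of these data known. Genes were named by rule: the 10 markers, Stat5a and Stat5b, tested paralogs, in each companion list the 4 called genes with the smallest adjusted p per comparison, and for each marker the 2 most correlated genes. Cd80, Il10, Irf1 and Pparg were named after their values were seen. The tests were run on counts simulated for independent libraries, with changes placed only in genes of higher mean counts. That check therefore does not cover counts as low as those of Nos2, Arg1 and Mgl2, or libraries that share a replicate number. Conditioned media of other cells named in the header of the count table were not analysed here.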

Additional observations from a re-analysis of the deposited data

Results flagged for a closer look

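The markers, their paralogs and the named genes of the companion and pathway lists were examined here. Of these, 15 had responses that differed between genotypes by the edgeR interaction test (adjusted p under 0.01). Each difference was negative, that is, a lower ratio of treated to DMEM level in STAT5cKO. Cell type markers and genes named for correlation alone are outside this count. Of the former, Batf3 also had a called difference with rmGM-CSF (-3.65 ± 0.47). Batf3 was at most 0.970 CPM outside STAT5fl/fl with rmGM-CSF, so its presence among the tested genes depended on that group. Among the markers these were Mgl2 (-2.55 ± 0.52 on the log2 scale), Il4ra (-1.46 ± 0.11) and Msr1 (-0.82 ± 0.14) with rmGM-CSF, and Msr1 (-0.87 ± 0.14) with 4T1 CM. Among the classical companions they were Il1b (-2.004 ± 0.30), Cxcl10 (-1.75 ± 0.25), Irf5 (-0.82 ± 0.08), Socs3 (-1.90 ± 0.15) and Cd80 (-1.01 ± 0.21, named after its values were seen) with rmGM-CSF. Among the alternative companions they were Egr2 (-1.05 ± 0.13), Irf4 (-1.02 ± 0.17), Ccl22 (-2.60 ± 0.51) and Clec7a (-0.96 ± 0.11) with rmGM-CSF, and Egr2 (-1.66 ± 0.14) with 4T1 CM. Arg2 (-1.68 ± 0.26), Clec10a (-1.88 ± 0.35) and Irf8 (-0.53 ± 0.10) were the others with rmGM-CSF. Of all tested genes, 3.11% were called for a difference between responses to rmGM-CSF and 2.22% were lower. With 4T1 CM these shares were 1.27% and 0.538%. The companions and Irf8 were named from called genes, so their number here is no result about the lists. The groups of 2 and 3 replicates were too small for a test of single outlying libraries.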

How the results depend on the processing

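Of 30 called results of single markers, 330 of 359 recomputed values kept their call, 29 lost it and 0 changed sign. Of 35 results that were not called, 375 of 416 values stayed so, 31 passed the threshold and 10 changed sign. Genotype calls with DMEM went from 1 marker to 2 without the filter, 2 by the likelihood ratio test, 3 in DESeq2, 3 at a threshold of 0.05 and 2 in only the 5 libraries, and ranged from 0 to 2 with a replicate left out. Those with 4T1 CM went from 3 to 5 at a threshold of 0.05 and 1 in only the 5 libraries, and ranged from 1 to 3. With a replicate left out, the calls ranged from 2 to 5 for 4T1 CM in STAT5fl/fl, from 1 to 2 for the difference between responses to rmGM-CSF and from 0 to 1 for that to 4T1 CM, the lowest values coming without replicate 112 or 113, when the lone STAT5fl/fl library per treatment is assumed to vary like the other groups. The libraries share only a replicate number and were not taken as paired. Deviations of libraries with 1 number from their group means correlated with a mean r of 0.142 in STAT5fl/fl (6 pairs, lowest 0.0926) and 0.157 in STAT5cKO (9 pairs, lowest 0.0548). Set against each other treatment of their genotype, they correlated best with their own number in 12 of 12 and 16 of 18 cases, a hint from the data and not from the design. In STAT5fl/fl the deviations of replicates 112 and 113 from their mean mirror each other. Their pairs and cases therefore repeat the same correlations and are not independent. With the number as a replicate block, 6 markers responded to rmGM-CSF in STAT5fl/fl and 4 in STAT5cKO, 5 responded to 4T1 CM in each genotype, and the difference between responses was called for 4 and 1. Mrc1 gained 3 calls and no other marker's call changed.

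The signs that turned all belonged to values near 0 or with wide errors. With a replicate left out, Nos2 with 4T1 CM in STAT5cKO ranged from -0.0769 (without replicate 115) to 0.892, and its difference between responses to 4T1 CM from -4.03 to 0.365 (without replicate 112). That difference for Acod1 ranged from -0.291 to 0.0486 (without replicate 116, and 0.0056 without replicate 114). Il4ra between genotypes with DMEM ranged from -0.0728 to 0.0409 (without replicate 114, and 0.0065 without replicate 113). Cd163 between genotypes with 4T1 CM was -0.00025 in only the 5 libraries and ranged from -0.181 (without replicate 112, and -0.0018 and -0.021 without replicate 114 and 115) to 0.212. Under TMM 2 of 42 levels moved by over 1 SD, Mgl2 and Il4ra in STAT5fl/fl with rmGM-CSF (3.16 and 207 CPM). DESeq2 gave no adjusted p for 5 marker results, the Mgl2 difference between responses to rmGM-CSF among them. The older form of the edgeR test, added after seeing the data, is included in these counts.

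Over all genes, genotype calls with DMEM went from 324 to 540 in DESeq2, 608 by the likelihood ratio test, 910 at 0.05 and 47 to 244 with a replicate left out. Those with 4T1 CM went from 1001 to 292 in only the 5 libraries, 1957 at 0.05 and 335 to 838, and those with rmGM-CSF from 1275 to 2145 at 0.05 and 554 to 1013. Differences between responses went from 404 to 622 at 0.05 and 135 to 271 for rmGM-CSF, and from 165 to 363 in DESeq2, 332 by the likelihood ratio test, 302 with the block, 423 at 0.05 and 24 to 100 for 4T1 CM. With a replicate left out, 1747 to 3617 and 1835 to 2834 genes responded to rmGM-CSF in STAT5fl/fl and STAT5cKO, and 2680 to 4722 to 4T1 CM in STAT5fl/fl. The cause of these changes was not tested. With 0 to 64 counts of Nos2, 0 to 52 of Arg1 and 4 to 59 of Mgl2 per library, small differences in these genes were not detectable at this depth.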
